A study of Mus musculus with 2 samples.

Results

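The 33 genes described here encode the machinery of glycolysis, the control of its flux, the making and export of lactate, and targets of the hypoxia-inducible factor HIF. They were taken as listed, by role: 2 glucose transporters, 15 glycolytic enzymes, 3 enzymes that control flux, 4 genes of lactate formation and export, 8 other HIF targets and Hif1a. A probe set was used if its annotation named 1 of these genes and no other gene. This gave 71 probe sets for 30 genes, out of 18194 genes so named on the whole array. Gpi1, Eno1 and Bnip3l lacked a probe set of their own and were not analysed here. All 30 genes passed the filter on low signals, described below, as did 12242 genes in all.

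RNA came from primary osteoblasts, the bone-forming cells, of the calvariae (skull caps) of C57BL/6 mice aged 5 days. Serum was withdrawn overnight, and then 1 culture spent 6 h in serum-free a-MEM brought to 4 mM phosphate, and the control spent the same 6 h in serum-free a-MEM with its usual 1 mM phosphate, both at pH 7.2. The phosphate was added from a sodium phosphate stock, so sodium was added with it. Each condition was measured on 1 Affymetrix array, so there is no replicate error, no test was possible, and every difference below describes these 2 arrays only. Whether cells of several mice were pooled is not given in the sources used here.

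Glycolysis splits glucose into pyruvate in the cytosol and yields ATP without oxygen, and osteoblasts are known to rely on it even when oxygen is present. In well-oxygenated cells, prolyl hydroxylases of the EGLN family mark the HIF-1 alpha protein, the product of Hif1a, for destruction. When they slow down, HIF-1 alpha builds up, pairs with ARNT and binds a short DNA core motif near genes for glucose uptake, glycolysis, lactate export and mitochondrial turnover. Because HIF-1 alpha is governed mostly as a protein, the mRNA signals here do not measure its activity.

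The values are MAS5 signals, a brightness per probe set in arbitrary units. The median of all signals, 21.5, served as a floor to which dimmer signals were raised, and a gene counted as measured if its brightest probe set lay above the floor on at least 1 array. Each gene was read from its brightest probe set by mean log2 signal, and the log2 ratio is 4 mM phosphate over 1 mM control. The only error available is technical. Probe sets of the same gene had log2 ratios with a standard deviation of 0.42 for dimmer signals up to 100, 0.26 for those from 100 to 400, and 0.16 for those beyond 400. The scale between the arrays is a second source of error. Bacterial poly-A RNAs, spiked into the RNA ahead of labelling, had a median log2 ratio of 0.46, and setting these spikes equal between the arrays moves every ratio down by that amount.

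Of 6 osteoblast markers with a probe set, all lay above the floor on both arrays, among them Col1a1, the main bone collagen gene, with 11889 in phosphate and 10139 in control. Their median log2 ratio was 0.16, and they ran both ways, from −0.39 for Sp7 to 0.34 for Sparc. All 8 macrophage and osteoclast markers were also above the floor, with a summed signal of 10835 in phosphate and 12059 in control. Most of that sum was Lyz2, with 7745 in phosphate and 7895 in control. The 8 log2 ratios had a median of −0.56 and ran from −0.80 for Aif1 to −0.028 for Lyz2. All 5 chondrocyte markers were above the floor, with a median of −0.019, among them the cartilage collagen gene Col2a1 with 4364 in phosphate and 4809 in control. The 3 adipocyte markers with a probe set had a median of −0.51. Pparg, the master regulator of fat cells, had 22.96 in phosphate, next to the floor, and 76.03 in control, 3.31-fold lower. Fabp4 of the same list had 1218 in phosphate and 1283 in control, a log2 ratio of −0.075. Of 5 endothelial markers none was above the floor, and the part of any of these cells in the results below was not tested. Actin probe sets had a 3′ to 5′ signal ratio, a sign of RNA integrity, of 1.43 in phosphate and 1.36 in control.

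Glycolysis and hypoxia genes as a group lay higher in 4 mM phosphate than the array as a whole. The members were chosen with earlier results of these data known, so the shares below may be partly set by that choice. Of the 30 measured members, 5 were at least 2-fold higher (16.7%), against 2.28% of all measured genes, and none was 2-fold lower, against 2.92% of all. The count of 5 became 0 with the poly-A spikes set equal and 1 with the hybridisation spikes, a further set of bacterial RNAs, set equal, where 1.05% and 1.41% of all genes were 2-fold higher. With no floor, which lets in the dimmest signals, the count was again 5, beside 11.7% of 18194 genes 2-fold higher and 10.1% lower. At 1.5-fold, 11 were higher and 2 lower, where all genes gave 7.25% higher and 12.1% lower, and the other 17 lay within 1.5-fold, against 80.6% of all. The 5 genes past 2-fold were Slc2a1, Slc2a3, Hk2, Pfkp and Pfkfb3, which act in glucose uptake or at the hexokinase and phosphofructokinase steps and their control. Log2 ratios were above 0 for 25 of 30 members, against 44.1% of all genes, although 11 of these 25 lay below 0 with the poly-A spikes set equal.

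The members had a median log2 ratio of 0.38, against −0.057 for all measured genes. With the poly-A spikes set equal these medians were −0.082 and −0.52, so the sign of the members' median depended on the scale while the distance between them, 0.44, did not. Over 12 other ways of processing that distance lay between 0.31 and 0.45. It appeared at every brightness. Where the dimmer signal exceeded 400, 17 members had a median of 0.32 and all 4027 genes −0.0090. Between 100 and 400, 9 members had a median of 0.55 and all 4064 genes −0.10. From the floor to 100, 4 members had a median of 0.73 and all 3094 genes −0.16.

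**Figure D1:**
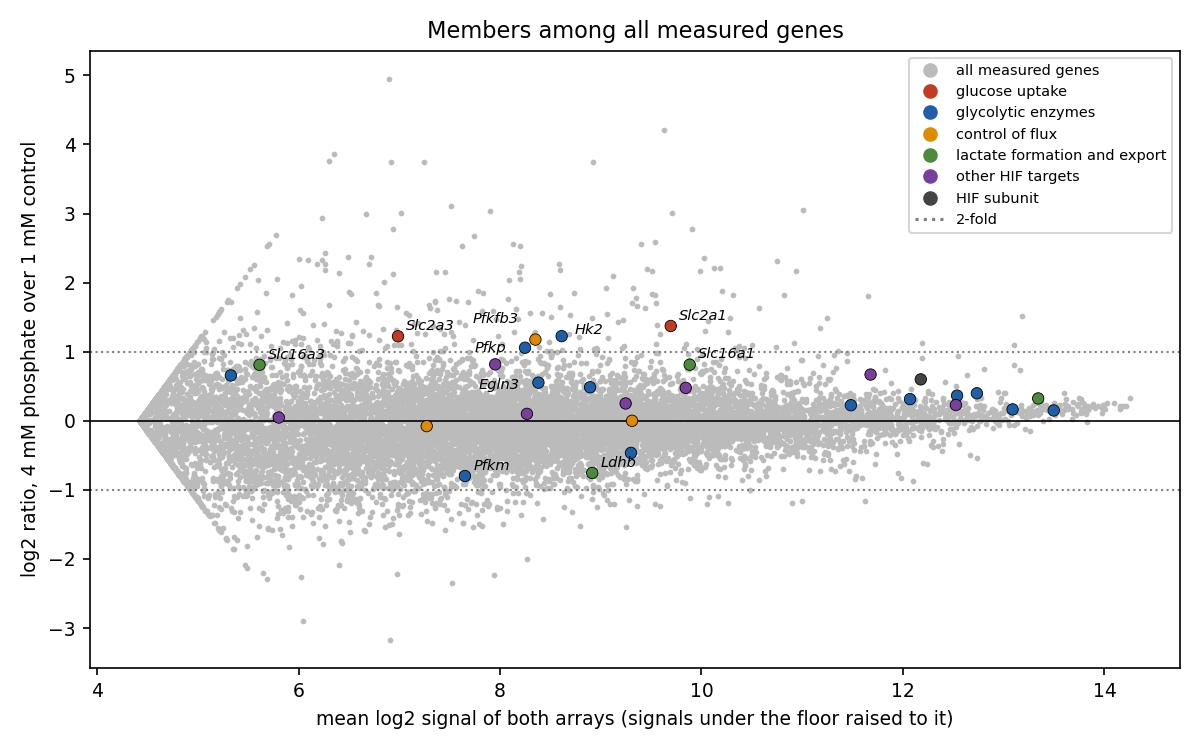
Log2 ratio of 4 mM phosphate over 1 mM control (vertical) against mean log2 signal of both arrays (horizontal) for 12242 measured genes (grey) and the 30 members (coloured by role), with dotted lines at 2-fold. Most members lie above 0, 5 of them above the upper dotted line, while Pfkm and Ldhb lie lowest; with the poly-A spikes set equal, all points would move down by 0.46 and 11 of the members above 0 would lie below it.

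Glucose uptake was the role with the highest ratios. Slc2a1, which encodes GLUT1, the general glucose transporter of most cells, had a signal of 1333 in phosphate and 515 in control. This 2.59-fold higher signal made it the highest member, and 1.17% of all measured genes had a ratio as high. Its other probe sets read 825 in phosphate and 281 in control, and 338 in phosphate and 138 in control, which are 2.93-fold and 2.45-fold higher. All 3 probe sets of Slc2a1 therefore passed 2-fold, with log2 ratios from 1.29 to 1.55. With the poly-A spikes set equal its log2 ratio was 0.91.

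Slc2a3, which encodes the high-affinity glucose transporter GLUT3, had 194 in phosphate and 83.1 in control, 2.33-fold higher. Its other measured probe set gave 75.3 in phosphate and 52.4 in control, a 1.44-fold difference, and a further 2 were below the floor on both arrays. Both measured probe sets were higher, but the size for Slc2a3 depended on the probe set.

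The first steps of glycolysis differed by isozyme. Hexokinases trap glucose in the cell as glucose 6-phosphate. Hk2, the inducible hexokinase of muscle, fat and tumours, had 598 in phosphate and 256 in control, 2.34-fold higher on its single probe set. Hk1, the housekeeping form, had 563 in phosphate and 402 in control, a log2 ratio of 0.49, with 0.51 on its other probe set. The log2 ratio of Hk2 thus exceeded that of Hk1 by 0.74, where the technical standard deviation of such a difference is 0.30.

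Phosphofructokinase, which adds the second phosphate and sets the pace of glycolysis, has 3 subunit genes, and their ratios differed in direction. Pfkp, the platelet-type subunit, had 439 in phosphate and 211 in control, 2.08-fold higher. A dimmer probe set of Pfkp had 23.7 in phosphate and 16.7 in control, below the floor, which bounds it only as at least 1.10-fold higher. Pfkl, the liver-type subunit, had 404 in phosphate and 275 in control, 1.47-fold higher, and its 3 probe sets ranged from 1.37-fold to 1.63-fold. Pfkm, the muscle-type subunit, had 152 in phosphate and 265 in control, a 1.74-fold lower signal and the lowest ratio of all 30 members. Pfkp exceeded Pfkm by 1.86 in log2 ratio, 3.62-fold, with a technical standard deviation of 0.36. A single scale factor for an array cannot alter that difference.

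The steps that split the sugar into triose phosphates followed. Aldolase cleaves the 6-carbon sugar, and Aldoa, its general form, had 7821 in phosphate and 5935 in control, 1.32-fold higher, with 1.27-fold to 1.38-fold over 5 probe sets, but below 0 in log2 ratio with the poly-A spikes set equal. Aldoc, the brain-type aldolase, went the other way, with 537 in phosphate and 741 in control, a 1.38-fold lower signal. Its other probe set was below the floor in phosphate and gives only a bound of −0.24 in log2 ratio. Tpi1, which interconverts the triose phosphates, had 6744 in phosphate and 5240 in control, 1.29-fold higher, its 3 probe sets spanned 1.19-fold to 1.29-fold, and its log2 ratio too was below 0 with those spikes set equal.

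From the triose phosphates to pyruvate, log2 ratios ran from 0.15 for Gapdh to 0.66 for the dim Eno2. Gapdh, the dehydrogenase of this pathway and a common reference gene, was read from the 3 control probe sets that alone name it. The brightest had 12171 in phosphate and 10974 in control, 1.11-fold higher, and all 3 lay between 1.11-fold and 1.14-fold. Pgk1, the first ATP-forming step, had 9223 in phosphate and 8227 in control, 1.12-fold higher, with 1.13-fold at most over 3 probe sets. Neither gene's ratio kept its sign under each scaling: Gapdh was below 0 with both kinds of spikes and after quantile or loess correction, and Pgk1 with both kinds of spikes and after quantile normalization. Pgam1, a phosphoglycerate mutase, had 4795 in phosphate and 3858 in control, 1.24-fold higher. Pkm, the pyruvate kinase gene, had 3095 in phosphate and 2648 in control, 1.17-fold higher. Both were below 0 with the poly-A spikes set equal, Pkm also with the hybridisation spikes. Eno2, the neuronal enolase, was dim, with 50.4 in phosphate and 32.0 in control, 1.58-fold higher, where the technical standard deviation in log2 is 0.42.

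In pathway order, the 10 measured genes from glucose uptake to the triose phosphates had a median log2 ratio of 0.52, and the 7 from Gapdh to lactate dehydrogenase had 0.22. This split was chosen after the values were seen. The upper part held 4 of the 5 members past 2-fold and the lower part none. The lower part is mostly bright, with Gapdh, Pgk1, Pgam1, Pkm and Ldha beyond 400 on both arrays. In the upper part Slc2a1, Hk1, Aldoa, Aldoc and Tpi1 were. Of all genes so bright 0.97% were 2-fold higher, against 1.99% between 100 and 400 and 3.85% below. The part of brightness in this split was not tested. The log2 median of the lower part, like those of all groups, shifts by 0.46 with the poly-A spikes set equal and is then below 0.

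**Figure D2:**
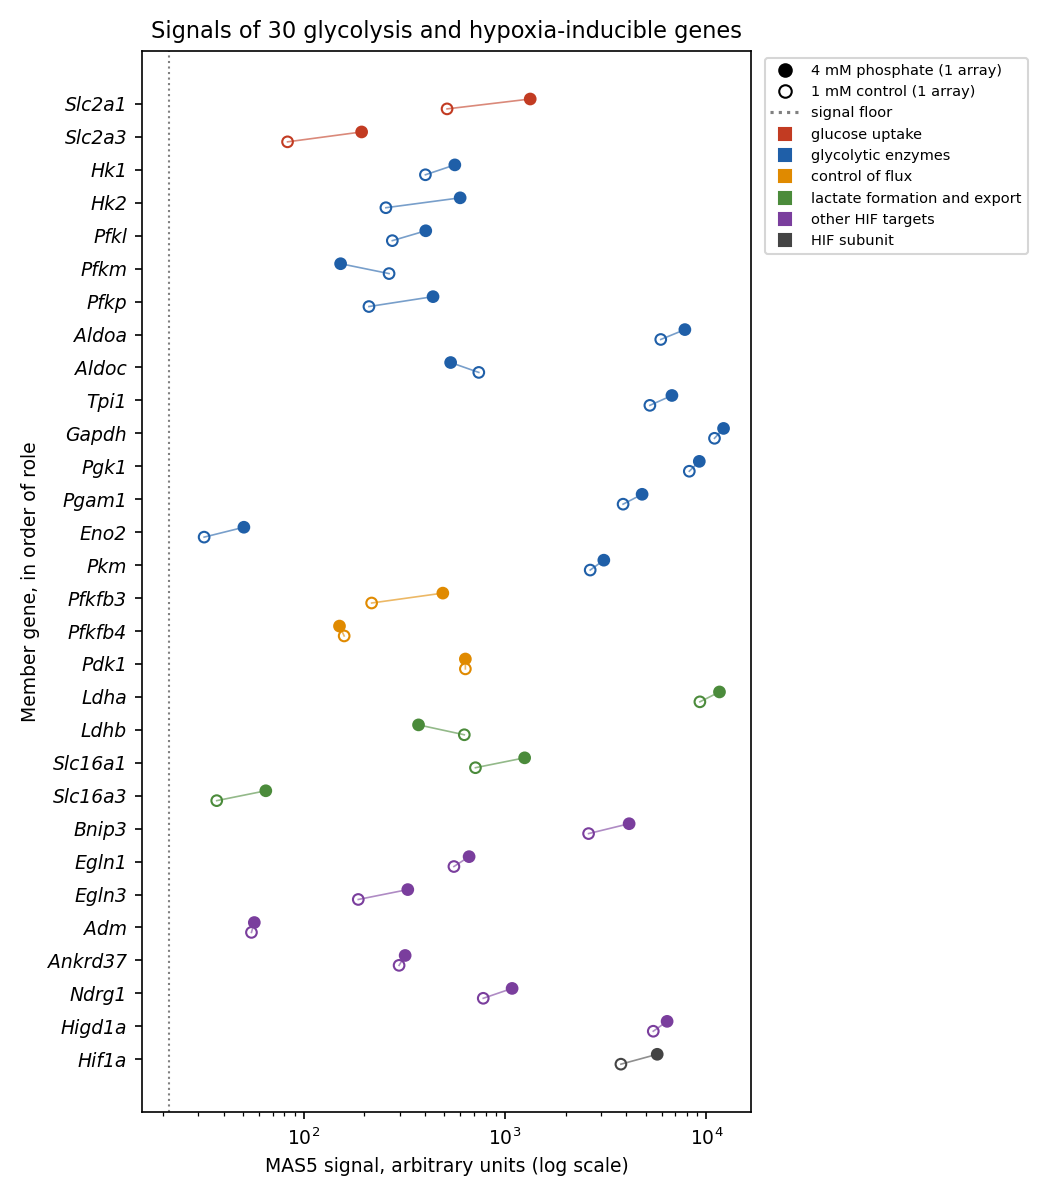
MAS5 signal (horizontal, log scale) of each of the 30 members, read from its brightest probe set, on the 4 mM phosphate array (filled) and on the 1 mM control array (open), 1 array each, by role. Slc2a1, Slc2a3, Hk2, Pfkp and Pfkfb3 have the widest steps to the right, and Pfkm, Aldoc and Ldhb have a lower signal in phosphate; levels of different genes come from different probes and cannot be compared.

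Among the enzymes that control flux, only Pfkfb3 differed by more than 2-fold. Pfkfb3 makes fructose 2,6-bisphosphate, the strongest activator of phosphofructokinase, and had 491 in phosphate and 217 in control, 2.26-fold higher. Its second probe set was below the floor on both arrays. Pfkfb4, a related enzyme, had 151 in phosphate and 159 in control, a log2 ratio of −0.077. The ratio of Pfkfb3 exceeded that of Pfkfb4 by 1.25, against a technical standard deviation of 0.36.

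Pdk1, the kinase that shuts pyruvate dehydrogenase and so keeps pyruvate out of the mitochondria, is a HIF target in many cells. Its brightest probe set had 635 in both phosphate and control. Another had 549 in phosphate and 403 in control, 1.36-fold higher, and a further one 360 in phosphate and 343 in control. No probe set of Pdk1 reached 1.5-fold.

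Lactate dehydrogenase showed an opposite pair. Ldha, the muscle-type subunit that favours lactate formation, had 11618 in phosphate and 9285 in control, 1.25-fold higher. Ldhb, the heart-type subunit, had 372 in phosphate and 627 in control, a 1.69-fold lower signal. Its other probe sets read 366 against 624, 309 against 568 and 308 against 548 in phosphate and control. All 4 probe sets of Ldhb were lower in phosphate, with log2 ratios from −0.88 to −0.76, and its ratio stayed below 0 under each of 12 other ways of processing. Ldha exceeded Ldhb by 1.08 in log2 ratio, 2.11-fold, where the technical standard deviation is 0.30. The ratio of Ldha alone was −0.14 with the poly-A spikes set equal.

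The transporters that carry lactate across the cell membrane were both higher. Slc16a1, which encodes MCT1, had 1251 in phosphate and 713 in control, 1.76-fold higher. Slc16a3, which encodes MCT4, the export form of glycolytic cells, was dim, with 64.8 in phosphate and 37.0 in control, 1.75-fold higher. Their log2 ratios differed by 0.0019, with a technical standard deviation of 0.45, and both stayed above 0 under each way of processing that measured them.

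**Figure D3:**
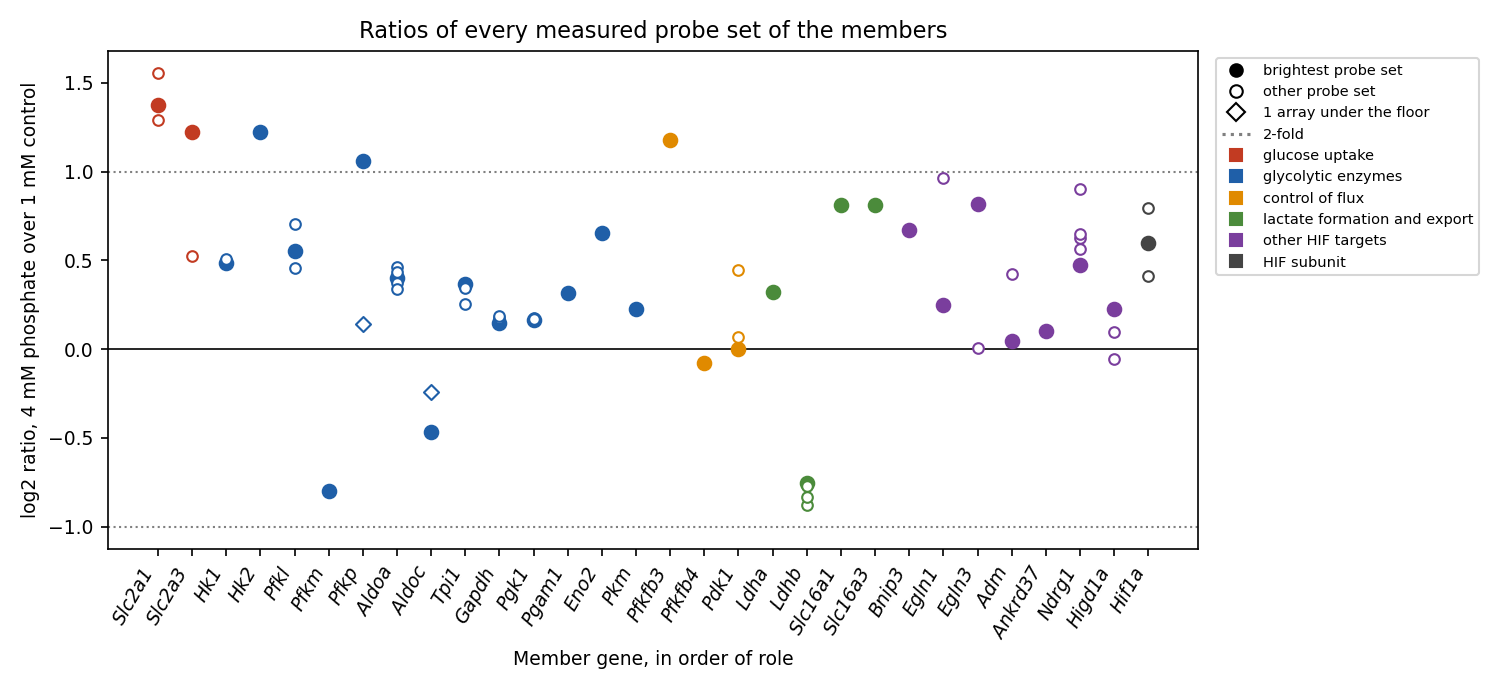
Log2 ratio of 4 mM phosphate over 1 mM control for every measured probe set of the 30 members, with the brightest probe set filled, the others open, and diamonds where 1 array was under the floor. Slc2a1 has all 3 probe sets above the upper 2-fold line and Ldhb has all 4 between −0.88 and −0.76, while Egln3 has the widest gap, 0.81, among probe sets that cleared the floor on both arrays; with the poly-A spikes set equal, every point moves down by 0.46.

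The other HIF targets, which lie outside glycolysis, had log2 ratios from 0.047 to 0.82. Of 7 measured, none reached 2-fold, where all genes gave 2.28% higher and 2.92% lower. At least 1.5-fold higher were 2 (28.6%), against 7.25% of all genes. All 7 had log2 ratios above 0, against 44.1% of all genes. With the poly-A spikes set equal 4 of the 7 turned below 0, where only 10.3% of all genes lay above 0. Egln3, a prolyl hydroxylase that is itself induced by HIF, had 329 in phosphate and 187 in control, 1.76-fold higher. Its dimmer probe set gave 36.2 in phosphate and 36.0 in control, so the probe sets of Egln3 did not give the same size. Bnip3, a mitophagy receptor of the outer mitochondrial membrane, had 4133 in phosphate and 2600 in control, 1.59-fold higher on its single probe set.

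Ndrg1, a stress-responsive gene strongly induced by low oxygen, had 1084 in phosphate and 779 in control, 1.39-fold higher. Its 5 probe sets ranged from 1.39-fold to 1.87-fold higher. Egln1, the main oxygen-sensing prolyl hydroxylase, had 663 in phosphate and 557 in control, 1.19-fold higher, with 1.95-fold on its second probe set (313 in phosphate and 161 in control). Higd1a, a mitochondrial survival factor, had 6382 in phosphate and 5448 in control, 1.17-fold higher, and its 3 probe sets pointed both ways.

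The remaining HIF targets hardly differed. Ankrd37, an ankyrin repeat gene often used as a readout of HIF, had 319 in phosphate and 298 in control, 1.07-fold higher. Adm, which encodes the vasodilator adrenomedullin, was dim, with 56.8 in phosphate and 55.0 in control, 1.03-fold higher, and 1.34-fold on its other probe set. Both log2 ratios were below 0 with either kind of spike set equal. For Bnip3l, the close relative of Bnip3, 3 probe sets shared with a pseudogene had log2 ratios from 0.026 to 0.15, which cannot be assigned to Bnip3l alone.

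Hif1a itself had 5699 in phosphate and 3762 in control, 1.51-fold higher. Its other measured probe sets had 562 in phosphate and 422 in control, and 52.5 in phosphate and 30.3 in control, 1.33-fold and 1.73-fold higher. All 3 were higher in phosphate, and the log2 ratio of 0.60 became 0.14 with the poly-A spikes set equal.

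Set side by side, the 22 glycolytic steps had a median log2 ratio of 0.38 and the 7 other HIF targets 0.25. The difference of 0.13 had no stable sign: it lay between −0.039 and 0.22 over 12 other ways of processing and was below 0 in 5 of them. Glycolytic steps ranged from −0.80 to 1.37 and held all 5 members past 2-fold, and the other HIF targets ranged from 0.047 to 0.82. Ranges and counts both grow with the number of genes, so those of 22 and 7 genes cannot show a difference in spread.

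**Figure D4:**
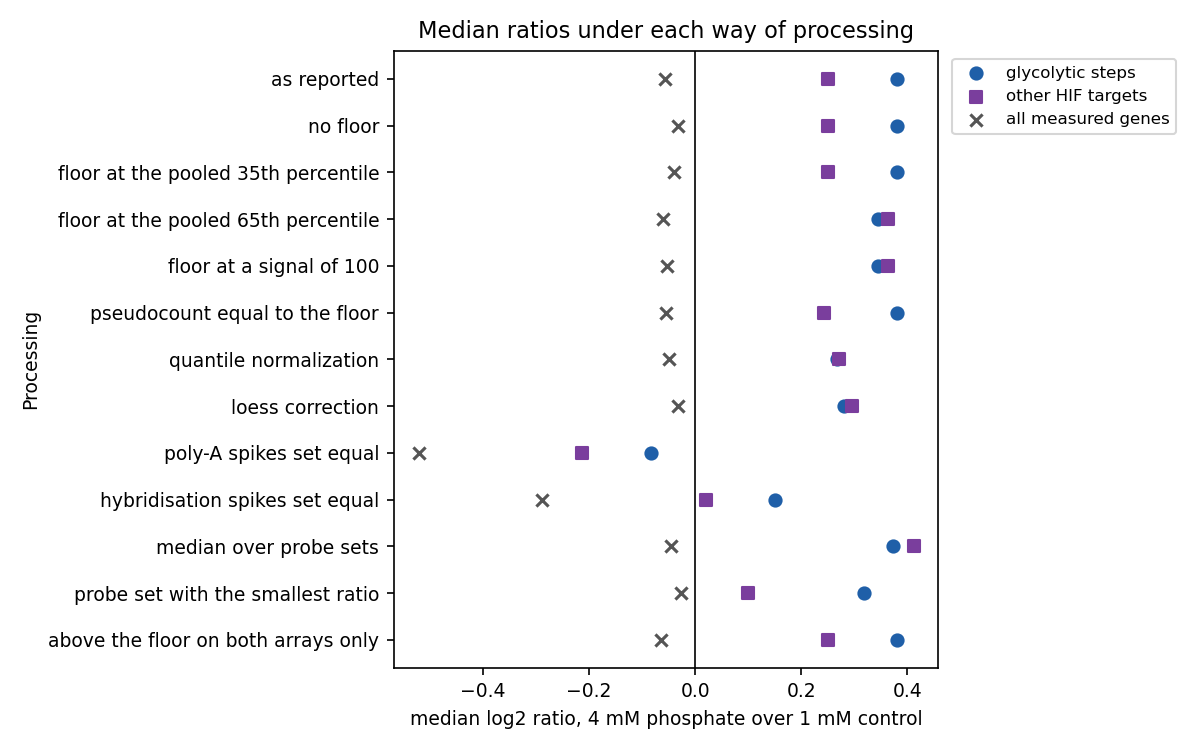
Median log2 ratio of 4 mM phosphate over 1 mM control for 22 glycolytic steps (circles), 7 other HIF targets (squares) and all measured genes (crosses) as reported and under each of 12 other ways of processing. Both groups lie to the right of all genes in each row, they change places in 5 of the 12, and with the poly-A spikes set equal all 3 medians are below 0.

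Most members with several probe sets gave the same direction on each. Of 16 members for which 2 or more probe sets cleared the floor on both arrays, 14 had all of them on the same side of 0, against 59.6% of the 4955 such genes in all. Higd1a and Pdk1 were the exceptions, Pdk1 with a log2 ratio of only −0.00018 on its brightest probe set. Ratios further from 0, as the members had in the median, keep to 1 side more easily, so these shares are not like for like. Probe sets of 1 gene share its RNA and its array, so they speak for the measurement and not for the cultures.

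Promoter sequence was examined because HIF binds a 5-base core, written ACGTG or GCGTG, and because the members past 2-fold sit in 1 pathway. Promoters, the 250 bases before each annotated start in RefSeq (build GRCm38.p6), were found for 30 of the 33 members, 43 promoters in all. Slc2a3, Bnip3l and Ndrg1 had no entry. The promoters of the members past 2-fold that have one, of Bnip3, a member and HIF target with several matches, and of Ldhb, which was lower in phosphate, are printed 5′ to 3′ on the gene's strand. Capitals mark ACGTG or GCGTG, or their complements CACGT and CACGC, and the last base lies next to the start. They lie at chr4:119108495-119108744 (Slc2a1, plus strand), chr6:82774455-82774704 (Hk2, minus strand), chr13:6648772-6649021 (Pfkp, minus strand), chr2:11553930-11554179 and chr2:11502091-11502340 (Pfkfb3, starts 1 and 2, minus strand), chr7:138909507-138909756 (Bnip3, minus strand) and chr6:142507958-142508207 (Ldhb, minus strand).
Slc2a1: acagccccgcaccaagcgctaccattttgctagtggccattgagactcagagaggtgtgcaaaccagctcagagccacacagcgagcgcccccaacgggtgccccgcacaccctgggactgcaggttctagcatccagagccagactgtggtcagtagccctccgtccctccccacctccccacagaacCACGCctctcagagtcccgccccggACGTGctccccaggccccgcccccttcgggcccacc
Hk2: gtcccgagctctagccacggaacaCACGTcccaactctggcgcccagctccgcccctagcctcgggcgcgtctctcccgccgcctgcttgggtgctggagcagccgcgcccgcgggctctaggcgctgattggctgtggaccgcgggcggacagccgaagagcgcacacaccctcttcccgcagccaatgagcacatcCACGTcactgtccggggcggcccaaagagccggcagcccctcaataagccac
Pfkp: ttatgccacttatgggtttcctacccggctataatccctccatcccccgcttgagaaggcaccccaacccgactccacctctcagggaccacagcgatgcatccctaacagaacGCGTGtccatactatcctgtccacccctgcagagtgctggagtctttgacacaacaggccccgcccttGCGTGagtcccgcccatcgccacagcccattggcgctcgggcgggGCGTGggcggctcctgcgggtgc
Pfkfb3 start 1: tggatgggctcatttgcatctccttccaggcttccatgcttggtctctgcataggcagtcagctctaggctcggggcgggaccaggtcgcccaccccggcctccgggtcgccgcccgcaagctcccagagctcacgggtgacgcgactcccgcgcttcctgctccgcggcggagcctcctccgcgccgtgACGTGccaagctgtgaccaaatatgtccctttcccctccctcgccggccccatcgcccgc
Pfkfb3 start 2: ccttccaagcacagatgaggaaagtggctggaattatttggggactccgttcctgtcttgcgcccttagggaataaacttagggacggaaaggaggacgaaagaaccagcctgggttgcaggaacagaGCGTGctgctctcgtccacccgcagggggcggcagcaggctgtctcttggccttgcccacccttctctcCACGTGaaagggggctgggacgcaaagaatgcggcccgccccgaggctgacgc
Bnip3: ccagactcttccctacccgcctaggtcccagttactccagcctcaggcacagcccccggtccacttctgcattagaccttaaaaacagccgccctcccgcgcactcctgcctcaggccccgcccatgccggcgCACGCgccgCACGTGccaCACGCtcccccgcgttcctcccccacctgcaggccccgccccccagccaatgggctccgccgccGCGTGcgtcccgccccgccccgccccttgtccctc
Ldhb: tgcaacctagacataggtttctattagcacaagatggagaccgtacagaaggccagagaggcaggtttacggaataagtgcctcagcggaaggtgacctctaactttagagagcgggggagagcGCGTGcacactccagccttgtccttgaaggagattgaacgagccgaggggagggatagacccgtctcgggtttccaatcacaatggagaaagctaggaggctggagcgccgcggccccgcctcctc

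The core was common among these genes. In Slc2a1 matches began 61 and 36 bases before the start, in Hk2 226 and 52, and in Pfkp 136, 68 and 23. Bnip3 had 4 separate matches, of which 1 is the palindrome CACGTG, the E-box that other factors also recognise and that contains ACGTG on both strands. On either strand, ACGTG or GCGTG stood in 35 of 43 member promoters (81.4%), against 38.6% of 32851 promoters in the table and 44.0% of the 21263 from protein-coding genes. CACGTG stood in 14.0% of member promoters and 6.02% of all.

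The core could hardly sort the members by ratio, because 27 of 30 with a promoter had it. It was found for 9 of 10 members with a promoter that were at least 1.5-fold higher, for 15 of 16 within 1.5-fold, and for both that were at least 1.5-fold lower, Pfkm and Ldhb. Eno2, Gpi1 and Tpi1 had none in these windows. Several members were listed because HIF is known to bind near them, so their share is partly set by the choice, and a match of 5 letters is not a bound site.

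Neighbouring pathways are described from lists that leave out the members. Of 19 measured genes among other glucose transporters, isozymes and glycolysis-linked enzymes, none was 2-fold different, where all genes gave 2.28% higher and 2.92% lower, and their median log2 ratio was −0.054, close to that of all genes. The highest with both signals above the floor was Pgp, which clears a by-product of glycolysis, with 1174 in phosphate and 856 in control, 1.37-fold higher; Fbp2, a gluconeogenic bisphosphatase, was at least 1.71-fold higher, being under the floor in control. The lowest were Slc2a12, a glucose transporter, with 33.2 in phosphate and 60.1 in control, 1.81-fold lower, and Eno3, the muscle enolase, with 186 in phosphate and 293 in control, 1.57-fold lower.

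The muscle isozymes Pfkm, Eno3 and Pgam2, a phosphoglycerate mutase, had log2 ratios of −0.80, −0.65 and −0.39, whereas Hk2 and Ldha, which muscle also uses, were above 0 (Ldha not with the poly-A spikes set equal). The 6 skeletal muscle markers had a summed signal of 113 in phosphate and 108 in control, and the regulators Myod1 and Myog and the myosin gene Myh3 were at the floor on both arrays. The other 3 had a median log2 ratio of 0.20 and differed in direction. Acta1, skeletal actin, had 21.5 in phosphate, next to the floor, and 55.9 in control. Des, desmin, had 27.0 in phosphate and 22.6 in control, and Ckm, muscle creatine kinase, had 24.8 in phosphate and 15.4, under the floor, in control. The part of muscle-like cells in these isozyme values was not tested. Hk3, a hexokinase of white blood cells, had 45.4 in phosphate and 69.9 in control. The macrophage markers had a median of −0.56 but ran from −0.80 to −0.028, and the part of such cells was likewise not tested. In bulk RNA, fewer cells of a type and less RNA per cell cannot be told apart.

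The list for pyruvate entry into mitochondria holds both genes that serve this entry and kinases that oppose it. Of its 12 measured genes none reached 1.5-fold on its brightest probe set, where 80.6% of all genes also lay within it. The median log2 ratio was −0.019. On their other probe set, the pyruvate dehydrogenase genes Pdhb and Pdha1 had log2 ratios of −0.71 and 0.60, both past 1.5-fold. Pdk4, a pyruvate dehydrogenase kinase that rises in fasting, was highest with 274 in phosphate and 184 in control, 1.49-fold higher, and Pdhx, a subunit of the pyruvate dehydrogenase complex, was next at 1.24-fold. Pcx, pyruvate carboxylase, and Pdp1, the phosphatase that reopens the complex, were lowest at −0.26 and −0.24. The pentose phosphate pathway, which branches off after hexokinase, likewise had none of 6 measured genes past 1.5-fold on its brightest probe set. The median was −0.11, from Rpe at −0.49 and Taldo1 at −0.22 to Pgd at 0.16 and Rpia at 0.26. The 4 probe sets of Pgd ranged from −0.35 to 0.16, and the lowest probe set of Tkt had −0.64, past 1.5-fold.

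Genes of glycogen turnover lay lower in phosphate. Of 10 measured, 9 had a log2 ratio below 0, and 2 were at least 2-fold lower, against 2.92% of all genes. Ppp1r3c, which targets protein phosphatase 1 to glycogen, had 325 in phosphate and 769 in control, 2.37-fold lower, with a log2 ratio of −0.87 on its other probe set. Ppp1r3b, a second such targeting subunit, had 189 in phosphate and 426 in control, 2.26-fold lower. Ugp2, which makes the UDP-glucose used to build glycogen, and Gys1, muscle glycogen synthase, were the highest at 0.17 and −0.13, although the 5 probe sets of Ugp2 ranged from −0.61 to 0.17. The list's median of −0.44 minus that of all genes was −0.38, and this difference lay between −0.47 and −0.32 over the 12 other ways of processing. Ppp1r3c and Gys1 are also on the list of HIF targets beyond the members, given below, so these lists overlap.

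**Figure D5:**
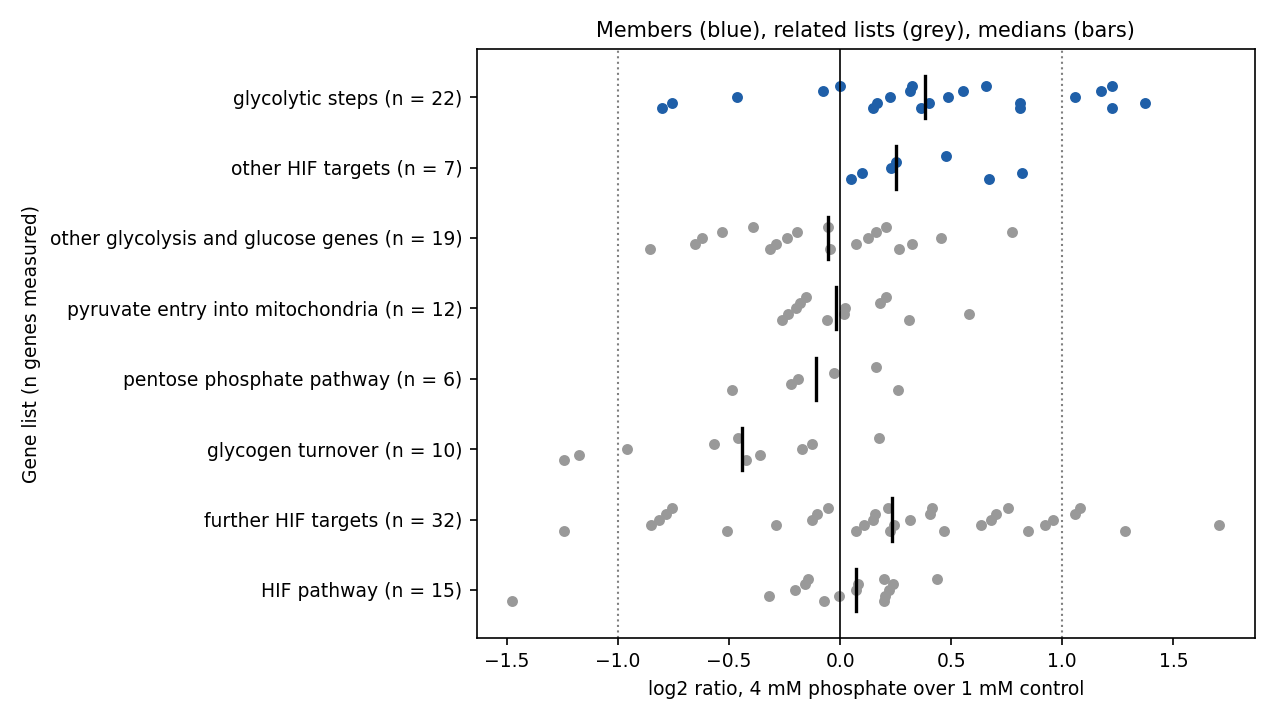
Log2 ratio of 4 mM phosphate over 1 mM control (horizontal) for each measured gene of the members' groups (blue) and of 6 related lists (grey), with the median as a bar and dotted lines at 2-fold. The glycolytic steps lie mostly to the right with a median of 0.38 and glycogen turnover mostly to the left with −0.44; with the poly-A spikes set equal all points move left by 0.46, which takes the first of these medians to −0.082.

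HIF targets beyond the member list had 22 log2 ratios above 0 and 10 below, where 44.1% of all genes were above 0. With the poly-A spikes set equal 12 were above and 20 below, where 10.3% of all genes were above 0. With the hybridisation spikes set equal it was 16 each, where 21.98% of all genes were above 0. Of 32 measured, 4 were higher and 1 was lower by 2-fold or more, where all genes gave 2.28% and 2.92%. At 1.5-fold, 11 were higher (34.4%) and 5 lower, where all genes gave 7.25% and 12.1%. Their median log2 ratio of 0.23 became −0.23 with the poly-A spikes set equal, where that of all genes was −0.52. The median minus that of all genes was 0.29, and between 0.18 and 0.32 over the 12 other ways of processing. Bhlhe40, a transcriptional repressor that also answers to other stimuli, had 1354 in phosphate and 415 in control, 3.27-fold higher. Angptl4, an inhibitor of lipoprotein lipase, had 1915 in phosphate and 788 in control, 2.43-fold higher, and 1.47-fold on its other probe set.

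Plod2, a collagen lysyl hydroxylase, had 1923 in phosphate and 911 in control, 2.11-fold higher, and Wsb1, a ubiquitin ligase subunit, had 716 in phosphate and 344 in control, 2.08-fold higher. Ppp1r3c, named above, was the only member of this list at least 2-fold lower. Next lowest was Car9, the carbonic anhydrase often used as a HIF readout, with 116 in phosphate and 208 in control, 1.80-fold lower. The ratios of this list therefore ran from 2.37-fold lower to 3.27-fold higher.

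The other HIF pathway genes, a list without the members Hif1a, Egln1 and Egln3, had a median near 0, at 0.070 over 15 measured genes. The gene at that median was under the floor in control, and the 14 above the floor on both arrays had 0.036. The list mixes activators and inhibitors of HIF. Its median was −0.16 with the hybridisation spikes set equal and −0.39 with the poly-A spikes set equal, where all genes had −0.29 and −0.52. Of the 15 genes none was 2-fold higher and 1 was 2-fold lower, beside 2.28% and 2.92% of all genes. Arnt2, a partner of HIF alpha subunits found chiefly in brain, had 119 in phosphate and 332 in control, 2.78-fold lower, with −0.36 in log2 ratio on its other probe set. Hif1an, the asparaginyl hydroxylase that blocks HIF, had 151 in phosphate and 189 in control, a log2 ratio of −0.32. The highest were Hif3a, a further alpha subunit, at 0.44 with dim signals of 58.6 in phosphate and 43.4 in control, and Crebbp, a coactivator of HIF, at 0.24, with probe sets of Crebbp from −0.43 to 0.24.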

How the data were processed

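Per the labels' protocols, 100 ng total RNA of each of 2 samples was made into biotin-labelled cRNA for an Affymetrix array. The deposited values are linear intensity values, 1 per probe set and array, made with MAS5 in GCOS 1.4, per the submitters' processing notes. After trimming 2% of probe sets at each end, both arrays had a mean signal of 200.00, so total mRNA per cell cannot be compared. Detection calls were not used here. Precision is limited by the number of arrays.

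Of 45101 probe sets, 34958 named 1 gene in the platform annotation. Names were checked by Entrez identifier against RefSeq genes of GRCm38.p6, which changed 0 symbols. The 64 manufacturer's control probe sets stayed out of the floor and stood for a gene only where no other probe set named it, which applies to Gapdh. Floor, brightest probe set and log2 ratio were computed with Python 3.11.15, pandas 2.3.3 and statsmodels 0.14.6 (loess span 0.3), and the ratio step was tested on simulated data. A ratio with 1 array under the floor is a bound. With 1 array per group no test was run, and genes were counted at 2-fold and 1.5-fold.

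Members and lists were chosen with earlier results of these data known. Every member could be named, and from each related list the 2 highest, the 2 lowest and any gene at least 2-fold different. Hk3, Pgam2, Pdha1, Pdhb, Tkt and the split of glycolysis into upper and lower parts were chosen after the values were seen. The alternatives were 4 other floors, a pseudocount, 4 other scalings, 2 other choices of probe set and genes above the floor on both arrays only. No protein sequence was used here.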

Additional observations from a re-analysis of the deposited data

Results flagged for a closer look

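The manufacturer's spike RNAs enter no comparison of genes, and both kinds were brighter on the phosphate array. All 24 probe sets for poly-A spikes, added before labelling, had log2 ratios above 0, from 0.20 to 0.65 with a median of 0.46. The hybridisation spikes, which join the labelled cRNA, had all 18 probe sets above 0 as well, from 0.14 to 0.47 with a median of 0.23. Their part in the members' ratios was not tested. With the poly-A spikes set equal, 14 of 30 members had log2 ratios above 0, against 10.3% of all genes, and with the hybridisation spikes set equal 19 did, against 21.98% of all.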

How the results depend on the processing

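No paired analysis was possible because each condition has 1 array. With the poly-A spikes set equal, the median log2 ratio was −0.082 for the members and for the glycolytic steps and −0.21 for the other HIF targets, 0 members were at least 2-fold higher and 2, Pfkm and Ldhb, were at least 2-fold lower. With the hybridisation spikes set equal, these medians were 0.15, 0.15 and 0.020, with 1 member, Slc2a1, at least 2-fold higher and 1, Pfkm, at least 2-fold lower. Both results follow from the single shift of all ratios. The median over probe sets gave 3 members at least 2-fold higher and 0.41 for the other HIF targets, and the probe set with the smallest ratio also gave 3 members, in both cases Slc2a1, Hk2 and Pfkfb3. The difference between glycolytic steps and other HIF targets was −0.039 with the median over probe sets, −0.015 with loess, −0.0036 with quantile normalization, and −0.020 with a floor of 100 or of the pooled 65th percentile; the cause was not tested. The other 54 values of these 6 results moved by less than the technical spread or, for counts, less than 1.5 times. With that last floor, genes at least 2-fold higher and lower numbered 183 and 164, and with the poly-A spikes set equal 129 and 1727. Eno2, Slc16a3 and Adm were not measured with either of these higher floors. Single ratios under about 0.4 in log2 on dim probe sets lie within the technical spread.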
